A study of Mus musculus with 8 samples.

Results

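The potassium channel genes of the mouse were followed here through the annotated cell types of 2 brain regions, prefrontal cortex (PFC) and striatum. All gene rows whose symbol starts with Kcn were taken, except Kcnj8 and Kcnj10, if they held at least 20 unique molecular identifiers (UMIs, each standing for 1 captured RNA molecule) over all annotated cells of the 8 libraries. Of 31053 gene rows 99 carried such a symbol, 2 were left out by name, 18 fell below the minimum (7 of them at 0 UMIs) and 79 remained as members. The last members above the minimum were Kcnab3os with 31 UMIs, Kcne3 with 29 and Kcnv2 with 27, and the first below it were Kcng4 with 18 and Kcnj13 and Kcnrg with 17 each. The rule used only names and summed counts, not genotype, tissue or cell type.

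The study profiled single cells with the 10x Chromium platform from male C57BL/6N mice that were wild type (WT) or heterozygous for a frameshift deletion in Setd1a (Setd1a+/-), made with CRISPR-Cas9 upstream of the exons that encode its SET domain. The labels give an age of 8 to 10 weeks, while the study's methods give an older age. Each of the 4 groups (PFC WT, PFC Setd1a+/-, striatum WT, striatum Setd1a+/-) had 2 libraries, and each library pooled tissue from 2 mice, so n counts libraries and not animals, and p-values measure only the spread between these pooled libraries. The sample labels name the second tissue NAc, and the design text calls it striatum, dorsal and ventral. Setd1a encodes an enzyme that methylates histone H3 at lysine 4.

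The authors annotated 23687 cells, 8997 from PFC in 8 types and 14690 from striatum in 10 types, with 1508 to 4361 cells and 5999666 to 13521114 UMIs a library and a median of 2302.5 to 3042 UMIs per cell. Over all cells of a library, Setd1a made up 8.45 and 11.2 (PFC WT), 5.60 and 9.33 (PFC Setd1a+/-), 13.4 and 15.2 (striatum WT) and 9.16 and 12.5 (striatum Setd1a+/-) of every 1000000 UMIs. The genotypes overlapped in PFC and did not in striatum, and because reads came from 3' ends these counts do not check the deletion. Of the marker lists, those of excitatory neurons, D1 and D2 medium spiny neurons (MSNs), astrocytes, endothelial cells, microglia, oligodendrocytes and their precursors were each highest in the type of that name. The exception was the striatal interneurons, where Gad2 was highest in D1 MSNs and Pvalb in newly formed oligodendrocytes, so that 4 of 6 markers were highest in the named type. Between 1 and 24 cell barcodes were shared by any 2 of the libraries, over 28 pairs.

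Potassium channels let potassium leave or enter the cell along its gradient. In neurons they set the resting potential, end the action potential and space out spikes, and in glia and vessels they carry potassium away from active neurons or set vascular tone. The pore subunits fall into voltage-gated families (Kv1 to Kv4, KCNQ, and the EAG, ERG and ELK channels), channels opened by calcium or sodium, inward rectifiers and two-pore-domain leak channels. Silent Kv subunits form no channel alone and join Kv2 subunits, and auxiliary subunits (Kv beta, the calcium-binding KChIPs of Kv4 channels, BK beta and KCNE) change how pores open and where they go.

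By these families the members were 54 pore subunits, 8 silent subunits, 13 auxiliary subunits and 4 genes that encode no channel subunit (Kcnq1ot1, Kcnab3os, Kcnd3os and Kcnmb4os2). What the pore and silent members share in sequence is the stretch that selects potassium. In the coding sequences of GENCODE vM21, mouse build mm10, a run of codons for threonine or serine, then valine, isoleucine, threonine or leucine, then glycine, then tyrosine or phenylalanine, then glycine was found in 54 of 54 pore and 8 of 8 silent members, and in 0 of 13 auxiliary members. It occurred 1 time in 47 pore members and 2 times in 7, all of them two-pore-domain members. The two-pore-domain members Kcnk1, Kcnk6 and Kcnk7 had 1 run of this pattern, and a filter that departs from the pattern was not counted. Below are members that the results turn on, each with 45 coding bases, 5' to 3' on the strand of the gene, and with the filter codons in capitals.
Kcna1: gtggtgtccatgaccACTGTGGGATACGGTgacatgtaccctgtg
Kcnc1: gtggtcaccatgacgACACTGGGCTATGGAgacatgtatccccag
Kcnc2: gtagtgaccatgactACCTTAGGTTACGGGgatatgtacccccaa
Kcns3: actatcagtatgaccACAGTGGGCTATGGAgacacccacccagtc
Kcnv1: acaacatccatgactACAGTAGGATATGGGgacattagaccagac
Kcnma1: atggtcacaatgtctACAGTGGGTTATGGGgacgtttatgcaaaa
Kcnk1: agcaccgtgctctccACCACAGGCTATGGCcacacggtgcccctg
Kcnj16: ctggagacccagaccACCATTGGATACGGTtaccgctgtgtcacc
The capitals lie in coding exons at chr6:126642228-126642242 (minus strand) for Kcna1, chr7:46427973-46427987 (plus) for Kcnc1, chr10:112456229-112456243 (plus) for Kcnc2 and chr12:11091575-11091589 (minus) for Kcns3. For Kcnv1 they lie at chr15:45109289-45109303 (minus), for Kcnma1 at chr14:23528413-23528427 (minus) and for Kcnj16 at chr11:111024904-111024918 (plus), and in Kcnk1 on chromosome 8 they span an intron. The Kv3 members Kcnc1 and Kcnc2 had the same base at 33 of the 45 positions and at 9 of the 15 in capitals. The silent Kcns3 matched Kcnc2 at 23 of the 45 positions.

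The members held 138625 UMIs, 0.176% of those of the annotated cells. Levels are given as UMIs of a gene per 1000000 UMIs (CPM) of the same cells of a library, as mean ± SD over the 4 libraries of a tissue (n = 4, both genotypes together). The reads are 3' tags with 1 UMI a molecule, so CPM were not divided by gene length. Where a member is said to be higher in 1 group of cells than in another, it was at least 2-fold apart in each of the 4 libraries. No test was made between cell types, since the types were clustered on these cells.

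**Figure D1:**
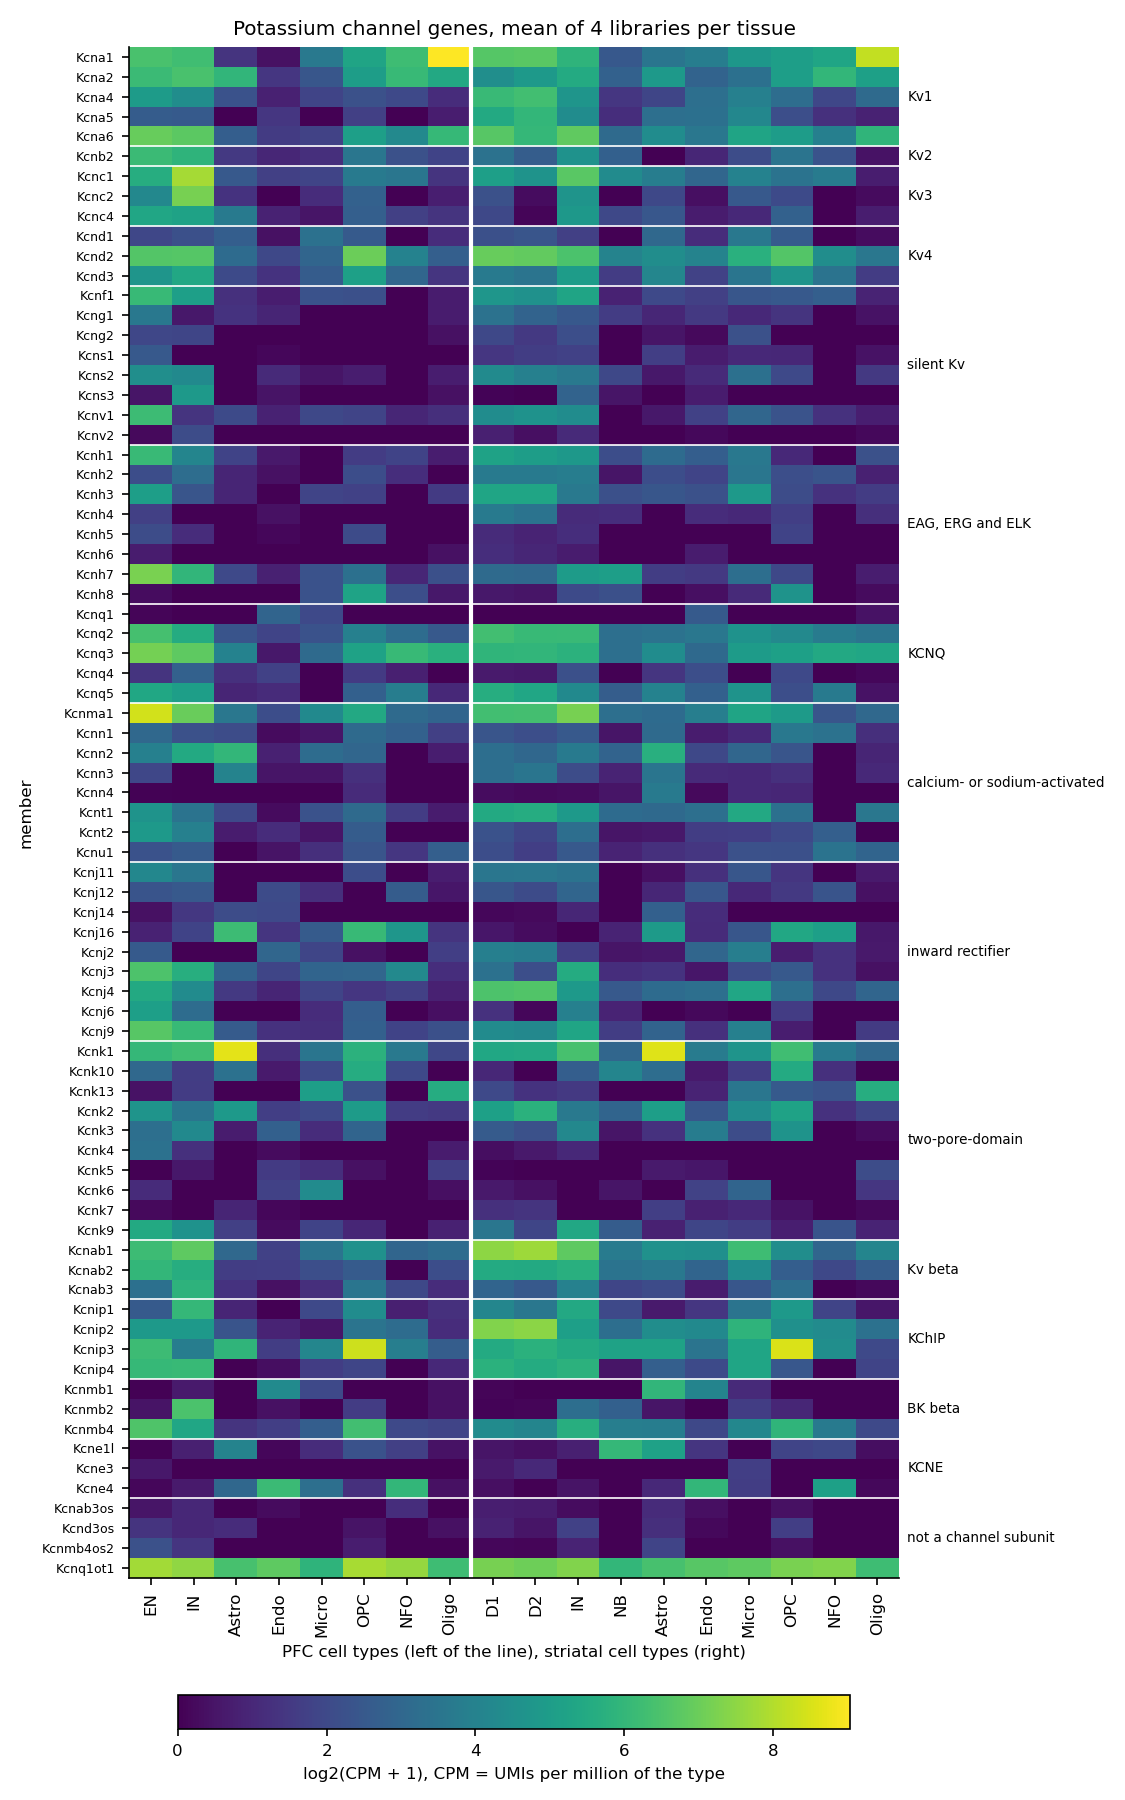
Mean level of 77 members (rows, grouped by family) in 8 PFC cell types (left of the white line) and 10 striatal cell types (right), as log2(CPM + 1) over 4 libraries per tissue. Most rows are brightest in the neuron columns, and the brightest squares outside neurons are Kcna1 in oligodendrocytes, Kcnk1 in astrocytes and Kcnip3 in OPC.

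Potassium channel genes were most abundant in neurons. Summed over all members, PFC excitatory neurons had 3001 ± 194 CPM and PFC interneurons 2592 ± 321 CPM, against 1526 ± 167 CPM in oligodendrocyte progenitor cells (OPC), 973 ± 90.6 in astrocytes, 908 ± 63.4 in oligodendrocytes, 694 ± 14.8 in newly formed oligodendrocytes, 327 ± 96.2 in microglia and 296 ± 53.8 in endothelial cells. In striatum, D1 MSNs had 2065 ± 71.6, D2 MSNs 2012 ± 130 and interneurons 2071 ± 76.0 CPM, values that lay within each other's spread. Striatal OPC had 1417 ± 155 CPM, endothelial cells 487 ± 60.7 CPM and the cells annotated NB (neural stem cells and neuroblasts) 444 ± 30.4 CPM. Striatal astrocytes had 1124 ± 46.4, microglia 1023 ± 196, oligodendrocytes 702 ± 22.0 and newly formed oligodendrocytes 609 ± 140 CPM. Barcodes with 10 to 100 UMIs, taken as empty droplets, summed to 1702 ± 213 CPM in PFC and 2048 ± 208 CPM in striatum, so free RNA of these genes was present in both tissues.

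Of 67 members with at least 50 UMIs in PFC, 46 (68.66%) were highest in a neuron type, where 33.82% of 13671 genes were. In striatum 45 of 64 members (70.31%) were highest in a neuron type, against 27.52% of 14051 genes. In PFC 7 of 7 silent Kv members and 4 of 4 KCNQ members were highest in neurons, and in striatum 4 of 4 Kv3 members were highest in interneurons. The two-pore-domain members were spread more widely, with 3 of 8 highest in neurons in PFC and 2 of 6 in striatum. Both KCNE members with enough UMIs in striatum were highest outside mature neurons, Kcne4 in endothelial cells and Kcne1l in NB.

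Against all cells that are no neurons, 41 of 64 members were higher in PFC excitatory neurons and 5 were lower, where 19.5% and 20.6% of all genes were. In striatum 33 of 61 members were higher in MSNs and 7 were lower, against 12.5% and 22.1% of genes. The largest median ratios in PFC were those of Kcnh1, an EAG channel, at 68.0 ± 16.8 CPM against 1.24 ± 1.2 (77.3-fold), Kcnip4, a KChIP, at 65.1 ± 6.5 against 1.07 ± 0.43 (57.1-fold), and Kcnj4, a strong inward rectifier, at 43.9 ± 17 against 1.27 ± 1.5 (55.9-fold). In striatum they were those of Kcna4, a Kv1 subunit with fast inactivation, at 72.5 ± 8.3 against 7.68 ± 7.5 CPM (13.2-fold) and of Kcnip4 at 11.2-fold. The members lower in the principal neurons of both tissues were Kcne4, Kcnmb1, Kcnk13, Kcnj16 and Kcnh8, with Kcnk10 and Kcne1l added in striatum.

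The leading members differed between the neuron types. In PFC excitatory neurons Kcnma1, the pore of the large-conductance calcium-activated (BK) channel, was counted at 338 and 340 CPM in the WT and 352 and 345 CPM in the Setd1a+/- libraries, values that lay close together. It was followed by Kcnq1ot1, a long RNA antisense to Kcnq1 and no channel subunit, at 219 ± 63.5 CPM. In PFC interneurons the first were Kcnc1 at 225 ± 35.9, Kcnq1ot1 at 187 ± 99.6 and Kcnc2 at 144 ± 39.8 CPM. In D1 MSNs they were Kcnab1, a Kv beta subunit, at 182 ± 28.2, Kcnip2, a KChIP, at 161 ± 7.77 and Kcnq1ot1 at 145 ± 36.3 CPM, and D2 MSNs had the same order with Kcnab1 at 209 ± 22.5 and Kcnip2 at 175 ± 15.4 CPM. Striatal interneurons had Kcnq1ot1 at 160 ± 34.0, Kcnma1 at 145 ± 19.0 and Kcna6, a Kv1 subunit, at 113 ± 23.6 CPM. Kcnq1ot1 lies within Kcnq1 on the other strand, and whether the counting used strand is not given in the sources used here, so the counts of the 4 antisense members are uncertain.

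PFC excitatory neurons and interneurons were set apart by 16 of 60 members. Of these, 9 were higher in excitatory neurons (4.67% of genes were) and 7 were higher in interneurons (3.22% of genes were). Kcnv1, a silent subunit, was counted at 80.5 and 65.7 CPM (WT) and 67.8 and 77.5 CPM (Setd1a+/-) in excitatory neurons, and at 0, 3.98, 2.22 and 0 CPM in interneurons. Every excitatory value lay far above every interneuron value, with a median ratio of 30.9. The other silent subunits Kcng1 (7.0-fold) and Kcns1 (4.78 CPM against 0, at least 2.56-fold) pointed the same way, as did the EAG and ELK channels Kcnh1 (4.04-fold) and Kcnh3 (6.25-fold). Kcnip3 (6.02-fold), Kcnk4, a mechanically gated leak channel (4.01-fold), Kcnj6, a G protein-gated inward rectifier (3.26-fold), and Kcnj2, a strong inward rectifier (4.86 CPM against 0, at least 2.60-fold), made up the rest. The lower bounds rest on 3 UMIs taken as the limit of a count of 0 over the 4 interneuron samples.

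The members higher in PFC interneurons were led by Kcnmb2, a BK beta subunit that inactivates the channel. It was counted at 88.6 and 110 CPM (WT) and 68.8 and 82.7 CPM (Setd1a+/-) in interneurons, against 0.265, 0.696, 0.641 and 0 CPM in excitatory neurons. The groups did not overlap, and the median ratio was 181, while the empty droplets held 2.95 ± 0.505 CPM. Kcns3, a silent subunit, had 29.0 ± 7.2 against 0.432 ± 0.292 CPM (51.8-fold) and Kcnip1 64.6 ± 26.3 against 4.89 ± 1.33 CPM (13.7-fold). Of the 4 Kv3 members, known for the fast repolarisation that lets interneurons fire at high rates, Kcnc2 and Kcnc1 followed. Kcnc4, another Kv3 member, overlapped between the types, at 36.4 ± 13.9 CPM in interneurons and 40.1 ± 9.80 CPM in excitatory neurons. Kcnc2 was counted at 189, 163, 124 and 99.3 CPM in the 2 WT and 2 Setd1a+/- interneuron samples, and at 10.3, 19.1, 15.0 and 25.8 CPM in excitatory neurons (8.45-fold). Kcnc1 was counted at 257, 197, 191 and 255 against 49.5, 44.2, 46.6 and 51.6 CPM (4.71-fold). Kcnc1 and Kcnc2 were both higher in each interneuron sample than in any excitatory sample. Kcnab3, a Kv beta subunit (6.12-fold), and Kcnn2, a small-conductance calcium-activated channel (3.42-fold), completed the 7. With a minimum of 200 UMIs in place of 50, 10 of the 16 members were left, because fewer genes were considered.

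**Figure D2:**
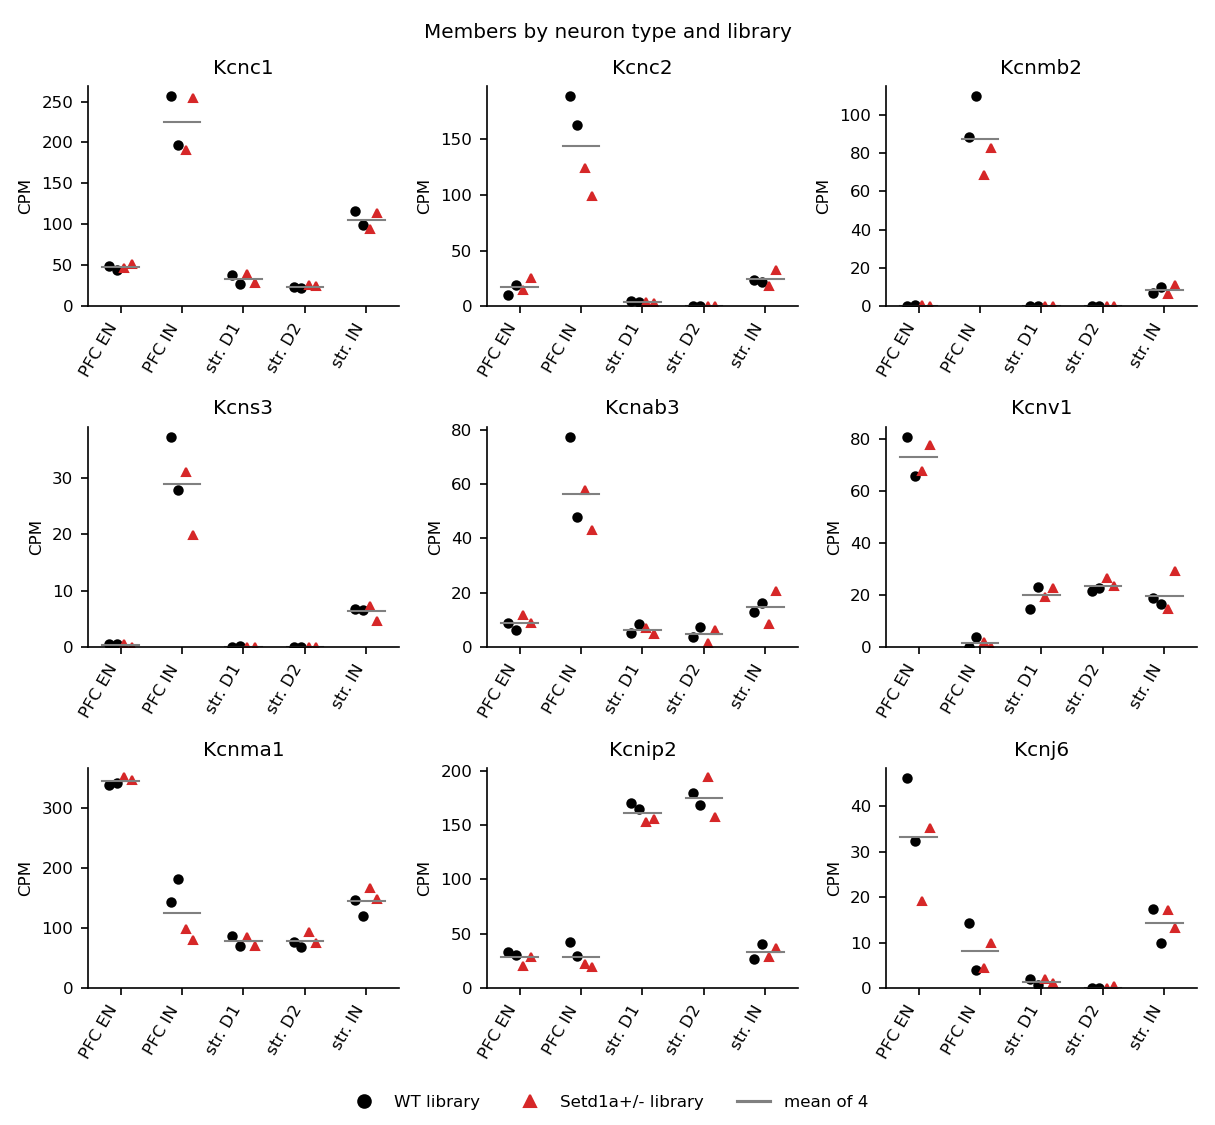
CPM of 9 members in PFC excitatory neurons (EN), PFC interneurons (IN), striatal D1 and D2 MSNs and striatal interneurons, with WT libraries as black circles, Setd1a+/- libraries as red triangles and the mean of 4 as a gray line. Kcnc1, Kcnc2, Kcnmb2, Kcns3 and Kcnab3 are highest in PFC interneurons, Kcnv1 and Kcnma1 in PFC excitatory neurons, and Kcnip2 in both MSN types.

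D1 and D2 MSNs, which form the direct and the indirect pathway, differed in 2 of 53 members, both higher in D1 (0.883% of genes were), and in 0 members higher in D2 (0.256% of genes were). Kcnk9, an acid-sensitive leak channel, was counted at 14.1, 9.31, 8.99 and 10.6 CPM in D1 and 2.92, 2.58, 3.91 and 1.56 CPM in D2 MSNs. Kcnc2 was counted at 4.41, 3.93, 3.50 and 3.30 CPM in D1 and 0.417, 0, 0 and 0.520 CPM in D2 MSNs. For both genes all D1 values were above all D2 values, with median ratios of 3.95 and 8.35, but Kcnc2 rested on 52 UMIs and the empty droplets held 4.54 ± 1.51 CPM of it. Neither gene had 200 UMIs in the MSNs, so 0 members were left at that minimum.

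MSNs and striatal interneurons were set apart by 17 of 55 members, of which 6 were higher in MSNs (3.18% of genes were) and 11 in interneurons (6.53% of genes were). Kcnip2 was counted at 170, 164, 153 and 156 CPM in D1 MSNs, 180, 169, 194 and 158 in D2 MSNs, and 27.3, 41.1, 28.3 and 36.8 in interneurons. Each MSN value was above each interneuron value (4.96-fold for MSNs together). The empty droplets held 195 ± 16.1 CPM of Kcnip2, above the means of the interneurons and of both MSN types. The other members higher in MSNs were Kcnh4, an ELK channel (7.16-fold), Kcnj2 (5.93-fold), Kcnk2, a mechanically gated leak channel (3.72-fold), and the Kv1 members Kcna4 (2.82-fold) and Kcna5 (2.2-fold).

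Those higher in striatal interneurons included the Kv3 members described next, the two-pore-domain members Kcnk9 (6.37-fold) and Kcnk3 (3.94-fold), and the G protein-gated inward rectifiers Kcnj6 (13.9-fold) and Kcnj3 (6.2-fold). Kcnc4 was counted at 33.3, 31.3, 13.5 and 32.1 CPM in interneurons and at 1.76 ± 0.52 CPM in MSNs, a median ratio of 15.0 with 1 Setd1a+/- interneuron sample lower than the rest. Kcnc1 was counted at 116, 98.7, 94.8 and 114 CPM against 29.5 ± 3.9 (3.77-fold), and Kcnc2 at 24.3 ± 6.18 against 2.36 ± 0.29 CPM (8.78-fold). The rest were Kcnh7, an ERG channel (4.02-fold), Kcnb2 (2.84-fold), Kcnmb4, a BK beta subunit (2.69-fold), and Kcnd3, a Kv4 channel (2.57-fold). In the same interneuron samples the excitatory marker Slc17a7 was counted at 251, 191, 149 and 165 CPM and Neurod6 at 101.5, 121, 80.1 and 92.4 CPM, and all 4 excitatory markers were highest there of the striatal types. The part of these cells in the interneuron levels was not tested.

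Among the excitatory subtypes of PFC, 6 subtypes with at least 10 cells in every library were each set against the others. The others included the small subtype DL-Pou3f1 (62 cells). Over these 6 comparisons 3 of 348 pairings of a member and a subtype were higher (1.14% of all genes) and 20 were lower (2.22% of all genes). The subtype DL-Foxp2, deep-layer cells marked by Foxp2, was lower in 6 of 58 members (4.28% of genes were) and higher in 0 (1.61% of genes were). Kcnab1 was counted there at 4.86 and 2.62 CPM (WT) and 3.18 and 2.57 CPM (Setd1a+/-), against 93.4 ± 16.0 CPM in the other subtypes. The DL-Foxp2 values were the lowest of the 6 subtypes in every library, 25.1-fold below the others at the median, and the next subtype was SL-Myh7 at 31.5 ± 12.2 CPM. Kcnb2, a Kv2 delayed rectifier, had 12.5 ± 4.16 against 88.4 ± 8.7 CPM (6.6-fold lower), Kcnip4 17.8 ± 6.0 against 79.2 ± 8.2 CPM (4.38-fold lower) and Kcnq5, a KCNQ channel of the M-current, 13.9 ± 3.28 against 48.9 ± 7.4 CPM (3.5-fold lower). Kcnc2 (4.67-fold) and Kcnh5 (2.76-fold) were lower as well.

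DL-Tshz2, deep-layer cells marked by Tshz2, was higher in 2 of 58 members (2.34% of genes were, a like share) and lower in 6 (4.29% of genes were). Kcnip1 was counted there at 55.1, 79.8, 50.8 and 72.7 CPM, against 0.316 ± 0.31 CPM in the other subtypes, a ratio of 158 with no overlap. Kcna5, a Kv1 subunit, was counted at 39.7, 31.4, 57.7 and 46.3 CPM against 1.93 ± 0.79 CPM (19.6-fold). DL-Tshz2 thus held 86 of the 93 UMIs of Kcnip1 in these subtypes, and the lower calls of Kcnip1 in SL-Cux2, DL-Etv1 and DL-Nnat follow from DL-Tshz2 being among the cells they were compared with. Kcnc2 (9.41-fold), Kcnq5 (6.22-fold), Kcnj4 (4.34-fold), Kcnd3 (3.83-fold), Kcnip2 (2.89-fold) and Kcnh7 (2.59-fold) were lower in DL-Tshz2.

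In the superficial-layer subtypes, Kcnk2 was counted at 0, 0, 3.08 and 0 CPM in SL-Myh7 and at 60.2, 36.5, 37.8 and 27.2 CPM in SL-Cux2, with every SL-Cux2 value above every SL-Myh7 value in this leak channel. The subtype highest in Kcnk2 was DL-Tshz2 at 47.5 ± 14.3 CPM. SL-Myh7 was 12.2-fold below all other subtypes in Kcnk2. It was lower in 4 of 58 members (1.63% of genes were) and higher in 1 (1.31% of genes were). The other lower members were Kcng1 (3.77-fold), Kcnip3 (3.49-fold) and Kcna6 (3.41-fold), and the higher one was Kcnj12, a strong inward rectifier, at 12.1 ± 7.2 against 3.29 ± 1.6 CPM (3.89-fold). Kcna5 was at 0 in SL-Cux2 in all 4 libraries, at least 8.54-fold lower than in the others, of which DL-Tshz2 held 61 of the 93 UMIs. DL-Etv1 and DL-Nnat were also low in Kcna5, at 0.990 ± 1.35 and 1.59 ± 1.85 CPM. With a minimum of 200 UMIs, 15 of the 23 calls between subtypes were left.

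**Figure D3:**
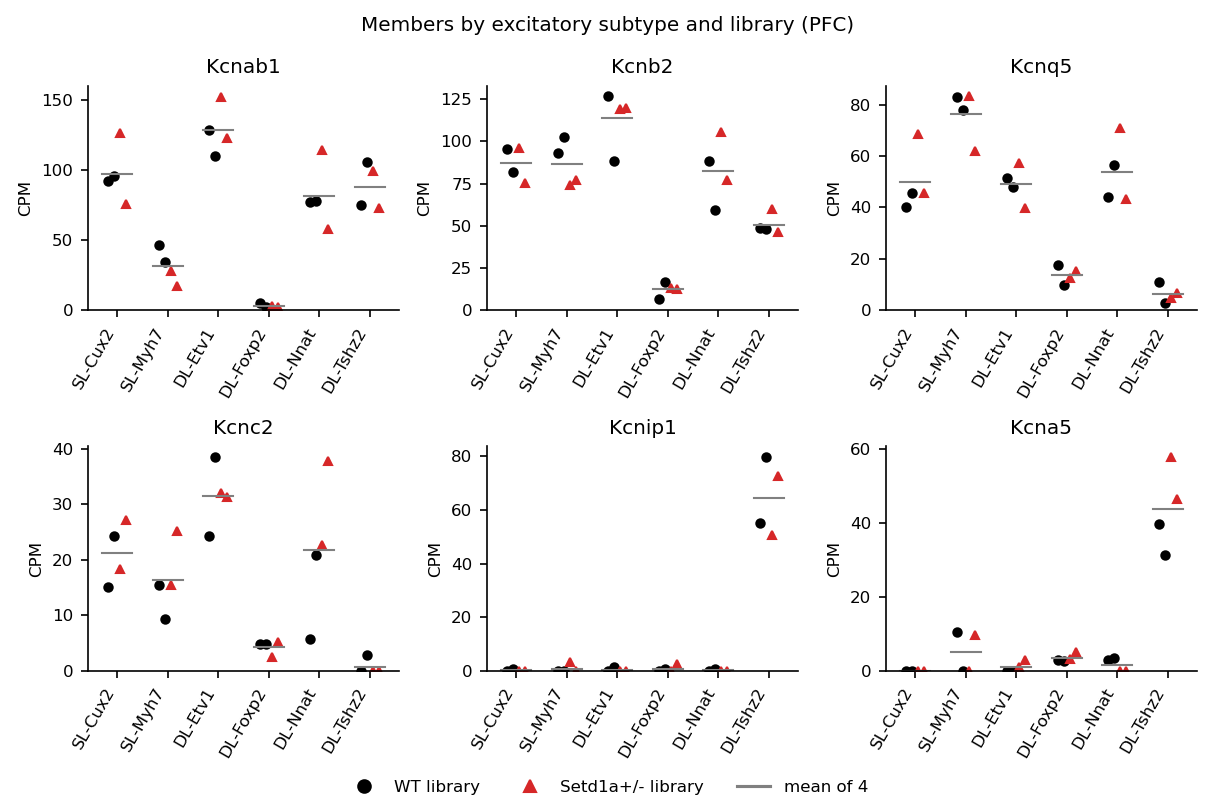
CPM of 6 members in 6 excitatory subtypes of PFC, with WT libraries as black circles, Setd1a+/- libraries as red triangles and the mean of 4 as a gray line. Kcnab1, Kcnb2 and Kcnq5 are low in DL-Foxp2, and Kcnip1 and Kcna5 are high in DL-Tshz2.

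Outside neurons a few members stood out in each glial type. Kcnk1, a two-pore-domain channel, was the first member of astrocytes, counted at 434, 304, 496 and 396 CPM in PFC and at 431, 542, 406 and 149 CPM in striatum. The lowest striatal value was that of Setd1a+/- replicate 2, which held 31 astrocytes. It was still above the highest Kcnk1 value of the next type, striatal interneurons, at 95.4 CPM. Kcnj16, an inward rectifier that pairs with other Kcnj subunits, ranked after Kcnk1 and Kcnq1ot1 in PFC astrocytes at 72.9 ± 19.1 CPM and was also counted in PFC OPC at 67.3 ± 15.8 CPM, against 0.809 ± 0.477 CPM in excitatory neurons. Kcnn2 was highest in striatal astrocytes, at 50.6 ± 26.3 CPM. In PFC astrocytes it had 62.6 ± 34.9 CPM, which overlapped with interneurons at 44.3 ± 2.09 CPM, and astrocytes led in 3 of 4 libraries.

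Along the oligodendrocyte lineage the members changed sides. OPC were higher than mature oligodendrocytes in 13 of 20 members in PFC (19.1% of genes were) and in 12 of 24 in striatum (17.0% of genes were), and lower in 2 members in each (7.06% and 6.62% of genes). Kcnip3, a KChIP, was counted in PFC OPC at 328, 323, 274 and 388 CPM, in newly formed oligodendrocytes at 13.4 ± 5.23 and in oligodendrocytes at 5.37 ± 4.71 CPM, an 82.1-fold difference between the ends. In striatal OPC it was counted at 398, 377, 401 and 308 CPM against 3.01 ± 2.28 CPM in oligodendrocytes (147-fold). No OPC sample overlapped with any oligodendrocyte sample in Kcnip3. Kcnk10, a two-pore-domain channel, had 47.5 ± 15.7 and 45.1 ± 9.26 CPM in OPC of PFC and striatum and 0 UMIs in the oligodendrocytes of all 8 libraries, at least 63.7-fold and 83.6-fold higher. The Kv4 channel Kcnd2, a pore that KChIPs bind, was 24.3-fold and 19.2-fold higher in OPC.

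In the other direction, Kcna1, a Kv1 channel of axons, was counted in PFC oligodendrocytes at 596, 388, 621 and 493 CPM against 37.5 ± 6.34 CPM in OPC (13.4-fold). In striatal oligodendrocytes it was counted at 324, 334, 383 and 138 CPM against 32.4 ± 18.6 CPM in OPC (9.26-fold). The oligodendrocyte values were above the OPC values in every library, with Setd1a+/- replicate 2, on 67 oligodendrocytes, lowest in striatum. Kcnk13, a leak channel, was the other member, at 47.2 ± 17.0 against 3.78 ± 1.75 CPM in PFC (12.0-fold) and 48.3 ± 11.2 against 4.87 ± 0.998 CPM in striatum (9.97-fold). Newly formed oligodendrocytes lay between the ends in PFC for Kcna1, at 74.9 ± 24.2 CPM, and held 0 UMIs of Kcnk13.

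Endothelial cells held few UMIs of many members. Compared with the other cells that are no neurons, they were lower in 18 of 27 members in PFC (15.4% of genes were) and 16 of 40 in striatum (12.7% of genes were), and higher in 2 and 1 (15.4% and 12.7% of genes). Kcne4, a KCNE subunit that dampens Kv1 channels, was higher in both tissues, 9.14-fold in PFC and 30.4-fold in striatum, where it was counted at 55.6, 52.0, 85.9 and 52.8 CPM. Newly formed oligodendrocytes also held Kcne4, at 61.5 ± 23.5 CPM in PFC and 34.3 ± 23.2 CPM in striatum, and endothelial cells led all types in 1 of 4 PFC libraries and in 4 of 4 striatal ones. Kcnmb1, the BK beta subunit known from smooth muscle, was 46.8-fold higher in PFC endothelial cells at 19.0 ± 6.26 CPM. In striatum Kcnmb1 was highest in astrocytes, at 37.8, 16.3, 63.1 and 127 CPM, while PFC astrocytes held 0 UMIs of it. The 4 mural cell markers Rgs5, Vtn, Pdgfrb and Acta2 were highest in the endothelial type in both tissues and summed to 4739, 4432, 4980 and 4607 CPM there in PFC and to 4313, 4097, 4539 and 3977 CPM in striatum. The part of mural cells in the Kcnmb1 and Kcne4 levels was not tested.

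Striatal NB cells had Kcne1l as their first member, at 78.1, 35.2, 71.8 and 73.4 CPM, against 0.433 ± 0.512 CPM in D1 MSNs. Kcnq1ot1 was close behind in NB, at 61.6 ± 28.2 CPM. Striatal astrocytes held Kcne1l at 34.8 ± 16.8 CPM, which overlapped with NB, and NB led in 3 of 4 libraries. In PFC microglia Kcnq1ot1 was first at 57.5 ± 9.28 CPM, and Kcnk13 was next at 28.4, 5.41, 70.9 and 24.4 CPM, values that ranged widely on 29 UMIs.

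The same cell type could be compared between PFC and striatum for 7 types with edgeR's quasi-likelihood test on summed UMIs, 4 libraries against 4, with genotype as a covariate. A member was called at a false discovery rate (FDR, over all genes tested in the type) below 0.05 and a fold change (FC) above 1.5, and a positive log2 FC means higher in PFC. Of 93 tests of a member in a type 22 were called, 12 higher in PFC and 10 higher in striatum, and DESeq2 called 21, where edgeR called 6.63% of all genes tested over the 7 types. A member could pass the filter on low counts through 1 tissue alone, and such a member had to be higher in that tissue. The tissues were prepared with different digestion times, so tissue and preparation cannot be told apart.

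Interneurons held most of these calls, with 13 of 38 members called where 11.8% of genes were. The filter bears on part of this count, since within PFC 31 members passed it in interneurons and within striatum 46. In striatal interneurons Kcns3 had 6.38 ± 1.16, Kcnn2 12.2 ± 2.75 and Kcnab3 14.7 ± 5.16 CPM. In PFC interneurons Kcnt1 had 9.88 ± 3.86 CPM. For these, Kcnmb2 and Kcnip3 the direction rests at least in part on the filter, so their values are a description. Kcnmb2 was higher in PFC with a log2 FC of 3.31 ± 0.27 (SE, FDR 9.00e-07), from 88.6, 110, 68.8 and 82.7 CPM in PFC against 6.82, 9.87, 6.16 and 11.3 CPM in striatum. Kcnc2 had a log2 FC of 2.52 ± 0.23 (FDR 3.26e-06), Kcns3 2.16 ± 0.32 (FDR 0.000299) and Kcnab3 1.88 ± 0.29 (FDR 0.000365). In these 4 members every PFC value was above every striatal value. Kcnn2 (log2 FC 1.81), Kcnb2 (1.28), Kcnc1 (1.05), Kcnh7 (0.98), Kcnq3, a KCNQ channel (0.95), Kcna2, a Kv1 channel (0.90), and Kcnj9, a G protein-gated inward rectifier (0.77), were higher in PFC too.

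Higher in striatal interneurons were Kcnip3, at 46.2, 46.9, 55.4 and 29.2 CPM against 25.7, 7.97, 8.88 and 9.93 CPM in PFC (log2 FC -1.83 ± 0.36, FDR 0.00300), and Kcnt1, a sodium-activated channel (log2 FC -1.51 ± 0.33, FDR 0.00658). The empty droplets held 56.8 ± 6.3 CPM of Kcnip3 in striatum and 51.1 ± 12.8 CPM in PFC, and 85.6 ± 23.4 and 28.5 ± 2.75 CPM of Kcnt1, each above the mean of the interneurons of that tissue. The part of free RNA in these calls was not tested. Marker levels of the interneurons are given beside these calls. Gad1 was counted at 1593 ± 253 CPM in PFC and 588 ± 119 CPM in striatum, Sst at 7294 ± 1163 and 4234 ± 1724 CPM, Vip at 2722 ± 1387 and 98.2 ± 134 CPM, and Slc17a7 at 0 to 17.9 CPM in PFC and 149 to 251 CPM in striatum. Pvalb, at 98.2 ± 78.4 and 64.9 ± 28.2 CPM, and Sst overlapped between the tissues. The part of these marker levels in the channel gene calls was not tested. Of the 13 calls, that of Kcnj9 was made in 6 of 14 settings, that of Kcna2 in 13 of 14 and that of Kcnt1 in 10 of the 11 in which it was tested, and the other 10 were made in all 14.

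In endothelial cells 6 of 14 members were called, all higher in striatum, where 6.06% of genes were called. The filter bears on this count and its direction, since within PFC 4 members passed it in these cells and within striatum 24, and the 6 called had 2 to 11 UMIs each in PFC and 49 to 93 in striatum. The values that follow are therefore a description of these members. Kcna1 was counted at 11.5, 15.8, 14.9 and 10.9 CPM in striatum and 0.501, 0, 0.751 and 0 CPM in PFC (log2 FC -4.69 ± 0.55, FDR 0.000624), with no overlap. Kcnip2 was counted at 13.3, 28.3, 8.26 and 23.7 CPM against 0, 2.65, 0.751 and 0 CPM (log2 FC -4.54 ± 0.74, FDR 0.00334). Kcnk1 (log2 FC -3.27), Kcnab1 (-3.02), Kcnd2 (-2.50) and Kcna5 (-2.003) completed the list. The call of Kcna5 was made in 7 of the 12 settings in which it was tested, that of Kcnab1 in 10 of 14 and that of Kcnd2 in 13 of 14, and the other 3 were made in every setting that tested them. In the same endothelial samples the D1 markers Drd1, Tac1 and Pdyn, which were at 0 in all 4 PFC libraries, summed to 131, 303, 76.0 and 406 CPM in striatum, and the striatal empty droplets held 195 ± 16.1 CPM of Kcnip2 and 34.5 ± 5.98 CPM of Kcna1. The part of free RNA from neurons in these calls was not tested. The number called in endothelial cells was 12 without PFC WT replicate 2, 4 without striatal WT replicate 1, and 3 without either PFC WT replicate 1 or striatal WT replicate 2.

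**Figure D4:**
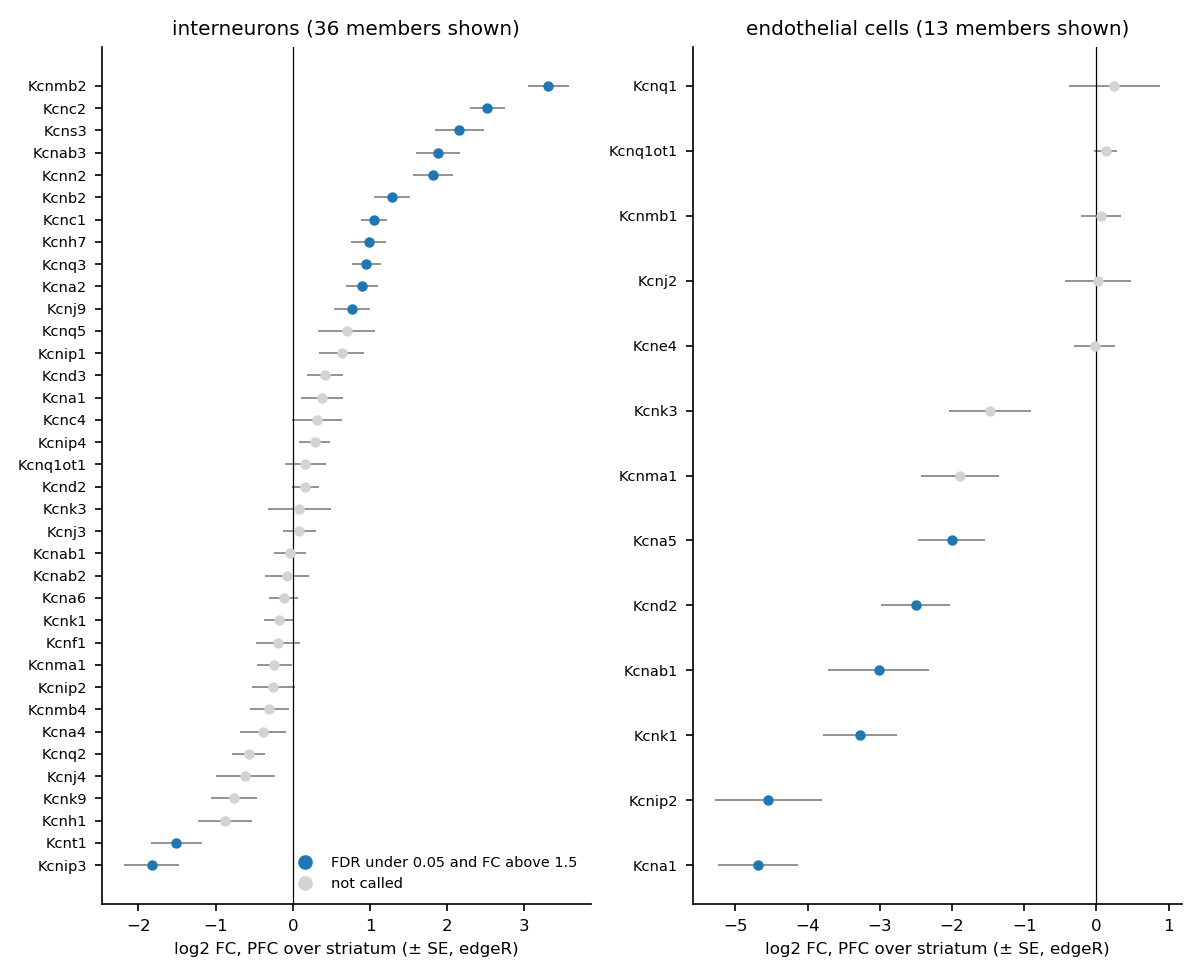
log2 FC of PFC over striatum with its SE (edgeR, 4 libraries against 4) for tested members in interneurons (left, 36 members shown) and endothelial cells (right, 13 members shown), with called members in blue. In interneurons 11 called members lie to the right (higher in PFC) and 2 to the left, and in endothelial cells all 6 called members lie to the left.

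In microglia 2 members could be tested and both were called, higher in striatum, where 21.4% of genes were called. Within PFC 1 member passed the filter in microglia and within striatum 7, so the count and its direction rest in part on the filter. Kcnab1 was counted at 75.6, 68.7, 62.5 and 89.6 CPM in striatum against 0, 5.41, 30.4 and 4.88 CPM in PFC (log2 FC -3.55 ± 0.67, FDR 0.00441), on 54 and 5 UMIs. The call of Kcnq1ot1 (log2 FC -0.81 ± 0.26, FDR 0.0467) was made in 3 of 14 settings. D1 markers summed to 802, 1014, 696 and 792 CPM in striatal microglia and to 3.55, 0, 0 and 0 CPM in PFC microglia, and the part of such RNA in the Kcnab1 difference was not tested. In astrocytes 1 of 7 members was called (10.4% of genes were), Kcnj16, which was higher in PFC at 62.7, 51.3, 85.4 and 92.2 CPM against 30.9, 16.3, 28.2 and 42.5 CPM (log2 FC 1.46 ± 0.29, FDR 0.00385). With the WT libraries alone, 2 against 2, the call was lost (FDR 0.114), and it was made in 13 of 14 settings in all. The members of the oligodendrocyte lineage gave no call. These were 0 of 22 in OPC (0.158% of genes), 0 of 4 in newly formed oligodendrocytes (0.0663%) and 0 of 6 in oligodendrocytes (2.7%), which does not show that the tissues were alike. In edgeR 5, 0 and 1 of them had an unadjusted p below 0.05, where 13.8%, 9.29% and 17.1% of all genes did. DESeq2 called 0 in each with 3, 0 and 1 below 0.05.

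The main question of the study was what Setd1a heterozygosity changes in each cell type. For the potassium channel genes no member passed the main test, which did not use the pairing of the libraries by replicate number. With the replicate number as a block, 1 member was called, Kcne4 in PFC endothelial cells. Over PFC types 0.0508% of all genes were called under the block. In PFC types 1.7% of all genes had an unadjusted edgeR p below 0.05 without the block and 4.7% with it. In striatal types these shares were 2.62% and 5.19%, and in excitatory subtypes 1.6% and 4.33%. With the block, 5 of 132 tests of a member in a PFC cell type had such a p (3.79%). In excitatory subtypes 12 of 225 did (5.33%), and in striatal types 22 of 227 did (9.69%). Without the block, 0 of 132 tests of a member in a PFC cell type were called, as were 0.0% of all genes. Of these 132 tests, 4 had an unadjusted p below 0.05. In excitatory subtypes 0 of 225 were called (0.0% of all genes) and 4 had a p below 0.05, and in striatal types 0 of 227 were called (0.00544% of all genes, at FC above 2) and 11 had a p below 0.05. DESeq2 called 0 members in each, with 1, 0 and 1 members at an unadjusted p below 0.05. With 2 libraries a genotype, 0 calls do not show that the genotypes were alike.

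Kcne4 (ENSMUSG00000047330, chr1:78816758-78820028, mm10) in PFC endothelial cells had the smallest p. It was counted at 34.1 and 29.2 CPM (WT) and 146 and 74.8 CPM (Setd1a+/-), from 68, 22, 195 and 31 UMIs. Both Setd1a+/- values were above both WT values, with a log2 FC of 1.87 ± 0.34 in edgeR, an unadjusted p of 0.000539 and an FDR of 0.999. The call depended on the fit. With the replicate number as a block the log2 FC was 1.89 and the FDR 3.75e-06, which made it the 1 member called under the block. In these cells 16 of 8777 genes were called under the block (0.182%) and 0 without it. On 4 libraries the block leaves little from which to estimate the spread of 1 gene, so this FDR leans on the spread of other genes. Kcne4 was also called without the filter on low counts (FDR 0.000135), where 0.0439% of genes were. Without Setd1a+/- replicate 2 its log2 FC was 2.20. The last fit holds 1 Setd1a+/- library, the one at 146 CPM, and takes the spread from the WT libraries alone, so it says nothing of replication. DESeq2 gave an FDR of 0.551. In striatal endothelial cells Kcne4 was counted at 55.6 and 52.0 CPM (WT) and 85.9 and 52.8 CPM (Setd1a+/-), which overlapped (log2 FC 0.47 ± 0.26, FDR 1.0). The difference between the tissues in this genotype effect had a log2 value of 1.40 ± 0.44 and an FDR of 1.0 in edgeR's interaction test. Kcnmb1 in the same PFC cells had 14.03 and 13.3 CPM with WT and 24.8 and 24.1 CPM with Setd1a+/- cells (log2 FC 0.87 ± 0.37, FDR 0.999).

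The other members with small p values were spread over several genes and types. In PFC interneurons 3 of 31 tested members had a log2 FC above 0, in SL-Myh7 7 of 31 and in D2 MSNs 34 of 43. The median log2 FC of members there was -0.233, -0.311 and 0.158, against -0.00263, 0.00245 and 0.00869 for all genes. With 1 library left out, the members' median ran from -0.294 to -0.194 in PFC interneurons and from -0.325 to -0.0816 in SL-Myh7. In D2 MSNs it ran from 0.126 to 0.181. In PFC excitatory neurons 25 of 59 members were above 0, in D1 MSNs 32 of 53 and in striatal interneurons 24 of 46. These directions were not tested. In PFC interneurons Kcnma1 was counted at 143 and 181 CPM (WT) and 97.6 and 79.4 CPM (Setd1a+/-) (log2 FC -0.86 ± 0.29, FDR 1.0 in edgeR), and Kcnc2 had a log2 FC of -0.62 ± 0.27. In DL-Foxp2 neurons the G protein-gated Kcnj6 was counted at 64.2 and 45.6 against 29.4 and 28.2 CPM (log2 FC -0.90 ± 0.30), and in DL-Tshz2 neurons Kcnt2, a sodium-activated channel, at 75.0 and 74.1 against 37.0 and 19.8 CPM (log2 FC -1.24 ± 0.41). In these 3 members whose values are given the genotypes did not overlap, and each FDR was 1.0 in edgeR. In DL-Nnat neurons Kcnip2 had a log2 FC of -0.93 ± 0.32 and Kcna2 one of 0.58 ± 0.23. In D1 MSNs Kcnt2 was counted at 2.35 and 2.07 CPM (WT) and 6.49 and 4.41 CPM (Setd1a+/-) (log2 FC 1.31 ± 0.47), a sign opposite to that in DL-Tshz2 neurons, and Kcnn1, a small-conductance calcium-activated channel, had a log2 FC of -1.28 ± 0.47. In D2 MSNs Kcnj2 had a log2 FC of 1.01 ± 0.43, and its values of 5.43 and 11.9 CPM (WT) and 12.5 and 21.3 CPM (Setd1a+/-) nearly met. Elsewhere in striatum Kcna2 had a log2 FC of 1.54 ± 0.66 in endothelial cells and 1.84 ± 0.70 in NFO, Kcnk3 one of 0.86 ± 0.38 in endothelial cells and Kcnip1 one of 0.68 ± 0.29 in interneurons. Each of these had an FDR of 1.0 in edgeR. Kcnip1 in striatal OPC was counted at 21.6 and 8.76 against 43.7 and 37.0 CPM (log2 FC 1.45 ± 0.43). In the Setd1a+/- libraries of striatal astrocytes Kcnmb1 was at 63.1 and 127 CPM against 37.8 and 16.3 CPM in WT (log2 FC 1.46 ± 0.48, FDR 0.919). The value of 127 CPM came from Setd1a+/- replicate 2, which held 31 astrocytes and 94178 UMIs, against 214 to 354 astrocytes in the others.

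**Figure D5:**
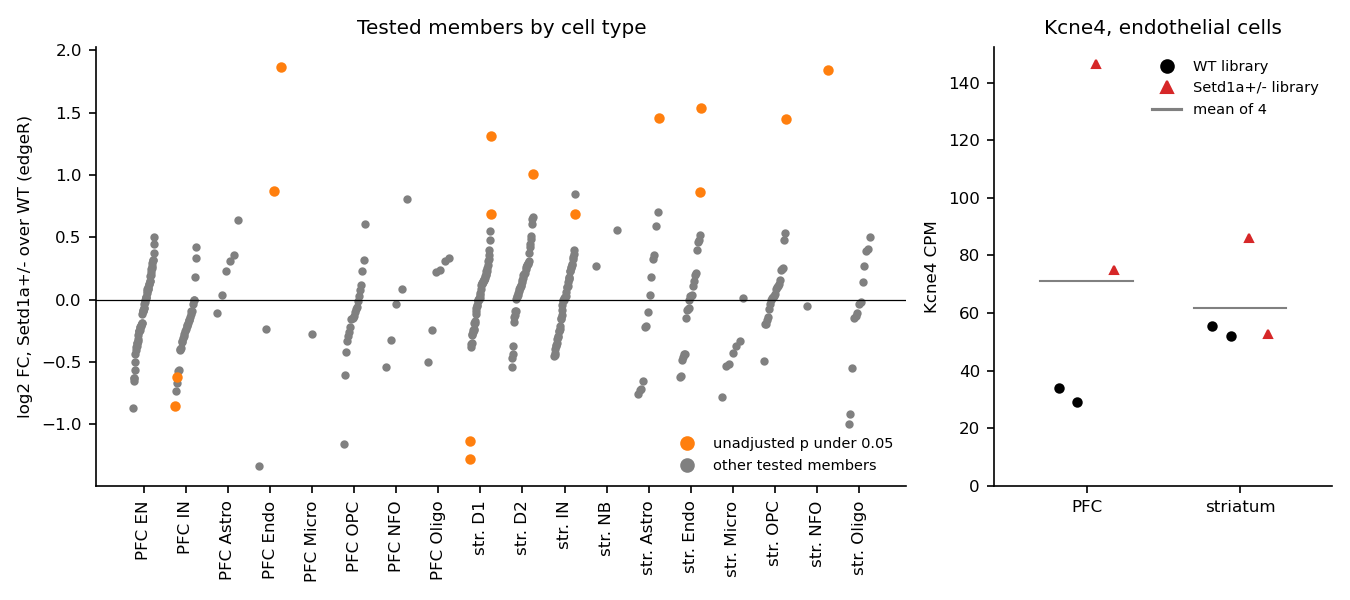
Left, log2 FC of Setd1a+/- over WT (edgeR, 2 libraries against 2) for every tested member in each PFC and striatal (str.) cell type, with members at an unadjusted p below 0.05 in orange. Right, CPM of Kcne4 in endothelial cells in each library, with the mean of 4 as a gray line. No member was called without a replicate block, and the 2 PFC Setd1a+/- libraries lie above both WT libraries in Kcne4.

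Whether the effect of genotype differed between the tissues was tested for 121 pairings of a member and a shared type. None was called (0.0% of all genes), 5 had an unadjusted p below 0.05 in edgeR (2.21% of all genes did), and DESeq2 called 0 with 2 below 0.05.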

How the data were processed

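Single-cell libraries of PFC and striatum were analysed from the files the authors deposited, which hold raw UMI counts per gene and barcode and an annotation of cells. Per the labels and methods, reads were processed with Cell Ranger 3.0.2 on mm10, and clustering in Seurat 3.2.0 kept barcodes that showed 800 genes or more and no more than 10% of UMIs from mitochondrial genes. The deposited matrices hold 737280 barcodes and 31053 gene rows each, and 0 columns of values were left unmapped. The authors' normalised expression tables were not used, since their gene column holds row numbers. Doublets were not called again. Some genes that entered the counts are not reported here by name.

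Counts were summed per library and annotated type. Types with at least 10 cells in every library were tested, which left out the subtype DL-Pou3f1. Its cells stayed among the other subtypes with which each excitatory subtype was compared. Tests used edgeR 4.0.16 (quasi-likelihood, TMM factors, filterByExpr at a minimum count of 10), with Benjamini-Hochberg adjustment over all genes of a type, called at an FDR below 0.05 and an FC above 1.5 (above 2 between genotypes in striatum, as in the study, and with no FC limit for the interaction). DESeq2 1.42.0, RLE size factors, no filter, each replicate left out, the replicate number as a block and, between tissues, WT libraries only or no mitochondrial and ribosomal protein genes were the alternatives. Between-type ratios took genes with at least 50 UMIs and added 0.5 UMI to each count. The steps were tested on simulated data, and R 4.3.3 and Python 3.11.15 were used.

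Genes named in the text were the first 3 members of a type, those with the largest ratios in a contrast (5 in each direction), up to 5 called per type between tissues, those of the 2 with the smallest p per type between genotypes whose unadjusted p was below 0.05, and a list of textbook channels. Others named among few calls were chosen after their values were seen. The members and lists were chosen with earlier results of these data known. The study's methods put 1 WT and 1 Setd1a+/- sample into each biological replicate, so the replicate numbers pair the libraries. The deviations of same-numbered libraries from their group means correlated at 0.472 in PFC and 0.564 in striatum over all cells. Within single cell types the correlation ran from 0.114 to 0.599 in PFC and from 0.0973 to 0.395 in striatum. In the excitatory subtypes it ran from 0.385 to 0.496. Counting intervals were not used, and a count of 0 was taken to allow 3 UMIs over a group.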

Additional observations from a re-analysis of the deposited data

How the results depend on the processing

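With the replicate number as a block, 1 member was called between genotypes in PFC types (Kcne4 in endothelial cells), where 0.0508% of all genes were. The block gave 0 calls of members in subtypes (0.0246% of all genes) and 0 in striatal types (0.108% of all genes). Without the filter on low counts 1 of 486 tests of a member was called in PFC types (0.0525% of all genes). Between tissues 59 of 478 were called without it (6.16% of all genes). Leaving out 1 library at a time gave 17 to 34 calls between tissues. There were 34 of 109 without PFC WT replicate 2 (8.58% of all genes). Without striatal WT replicate 1 there were 17 of 89 (3.85%), and without striatal WT replicate 2 17 of 90 (4.14%). The share of all genes called thus moved in the same direction. Between genotypes and in the interaction such a fit leaves a group of 1, which is assumed to vary like the others, so its calls are not counted. With 200 UMIs as the minimum the members 2-fold apart numbered 10 for PFC excitatory neurons and interneurons, 0 for D1 and D2 MSNs, 5 for OPC and oligodendrocytes in PFC and 5 in striatum, 11 for endothelial cells in PFC and 10 in striatum, and 15 for subtypes, since fewer genes were considered. For D1 and D2 MSNs leaving out 1 library gave 1 to 2. Of 60 named test results 5 turned direction when a library was left out, none of them called, and the cause was not tested. Their log2 FC between genotypes ranged from -0.01894 to 0.6038 for Kcna2 in PFC oligodendrocytes (lowest without Setd1a+/- replicate 1), from -0.155 to 1.513 for Kcnq1ot1 in NB (lowest without Setd1a+/- replicate 1), from -0.06101 to 1.089 for Kcne1l in NB (lowest without WT replicate 2), from -0.9277 to 0.3612 for Kcnq1ot1 in striatal newly formed oligodendrocytes (highest without WT replicate 1) and from -1.142 to 0.2919 for Kcnip2 in striatal oligodendrocytes (highest without Setd1a+/- replicate 1). Depth left 2 members in microglia, 4 in newly formed oligodendrocytes and 6 in oligodendrocytes that could be tested between tissues.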

Other observations

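Other genes that carry ions beside potassium channels or bind them were read from a list of 27, which includes sodium pumps, chloride cotransporters and channel partners. Between tissues 14 of 71 tests in edgeR were called, 4 higher in PFC and 10 higher in striatum, where edgeR called 6.63% of all genes tested over the same types, and DESeq2 called 15 of the list. Genes could pass the filter on low counts through 1 tissue alone, which then fixes their direction. In interneurons Cntnap2, which clusters Kv1 channels, was higher in PFC (log2 FC 1.26 ± 0.16, FDR 7.81e-05). Lrrc55, a BK gamma subunit, was higher in striatal interneurons (-2.37 ± 0.51). In endothelial cells Dpp6, a partner of Kv4 channels, had a log2 FC of -3.87 ± 0.70, and the Kv4 member Kcnd2 had -2.50 ± 0.47 there. Between genotypes 0 of 82 tests in PFC types, 0 of 91 in subtypes and 0 of 126 in striatal types were called in edgeR, with 2, 1 and 4 at an unadjusted p below 0.05, and DESeq2 called 0 with 0, 0 and 1 below 0.05. In the interaction 0 of 86 were called, with 1 below 0.05 in edgeR and 0 in DESeq2.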
